A study of Mus musculus with 4 samples.

Results

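Spsb1 and its relatives Spsb2, Spsb3 and Spsb4 are the mouse genes of the SPRY and SOCS box family, and all 4 have a row among the 23282 genes of the deposited count table. They were taken by symbol. Spsb1 was chosen by its measured log2 fold change and adjusted p in the comparison of dexamethasone with vehicle, so its treatment values are given as a description and carry no test. Spsb2, Spsb3 and Spsb4 were taken by name, whatever their values. Of the 4 genes, 3 had enough counts to be tested; Spsb4 was not measured, as described below.

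The samples are C2C12 myotubes, the fused muscle cells formed by an established mouse myoblast line that the labels give as female. All cells, controls included, had been deprived of steroids. They then received vehicle or 1 µM dexamethasone, a synthetic glucocorticoid, for 2 h. RNA held on the chromatin of isolated nuclei was sequenced in 2 libraries per group, 4 in all, so the counts follow RNA still being made or not yet released. As a check of the treatment, Fkbp5, a classic glucocorticoid target, was at 21.5 and 21.6 scaled counts (CPM) in vehicle and at 1019 and 697 after dexamethasone. The labels do not say whether the libraries came from separate cultures, so p-values measure the spread between these libraries, which may be technical.

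An SPSB protein is the substrate-recognising part of a ubiquitin ligase. Its SPRY domain grips a short stretch of a target protein, and its SOCS box recruits elongin B, elongin C and a cullin, chiefly cullin 5, which with a RING protein marks the target for the proteasome. SPSB1, SPSB2 and SPSB4 are known for binding inducible nitric oxide synthase, and SPSB1 also for acting on the type II receptor of TGF-β, a pathway that restrains muscle differentiation. SPSB3 is the most divergent of the family and is known for acting on the transcription factor Snail.

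The sequences just before the start sites of Spsb1 and Spsb3 are shown first, because the glucocorticoid receptor acts at DNA. Spsb1 had a large fold change here and Spsb3 a small one. They come from RefSeq's promoter table (GRCm38.p6), where all 4 symbols matched. Each is written 5′ to 3′ on the gene's own strand. The Spsb1 stretch lies at chr4:149955044-149955256 on the minus strand. The Spsb3 stretch lies at chr17:24886393-24886642 on the plus strand. The table gives 1 start for Spsb1 and 4 for Spsb3, and the Spsb3 stretch shown is the one that ends where the GENCODE M21 gene begins. Bases that GENCODE M21 places in an exon were left out. At Spsb2 and Spsb4 this left too few bases to show. Capitals mark every match, on either strand, to GGGCGG (the GC box, a site type of Sp1-like factors), CCAAT (the site type of NF-Y), TATAAA, and AGAACA (one arm of the glucocorticoid response element).
Spsb1: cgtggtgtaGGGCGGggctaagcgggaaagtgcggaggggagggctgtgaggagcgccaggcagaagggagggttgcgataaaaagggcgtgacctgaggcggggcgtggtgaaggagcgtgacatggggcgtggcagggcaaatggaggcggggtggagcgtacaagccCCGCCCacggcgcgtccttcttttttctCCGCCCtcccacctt
Spsb3: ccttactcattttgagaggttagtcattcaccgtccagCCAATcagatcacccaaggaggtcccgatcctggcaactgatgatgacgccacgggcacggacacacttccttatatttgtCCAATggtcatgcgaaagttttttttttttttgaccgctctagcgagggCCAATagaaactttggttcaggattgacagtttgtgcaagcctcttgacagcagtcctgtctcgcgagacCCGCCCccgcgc

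Over the 250 bases before its start, Spsb1 held 3 GC boxes, 0 CCAAT boxes and 0 TATA boxes, and Spsb3, before the start shown, held 1 GC box, 3 CCAAT boxes and 0 TATA boxes. The Spsb3 count depends on the start: its other windows held 0 or 1 GC box and 0 to 3 CCAAT boxes. Spsb2, whose log2 fold change was 0.02, held 2 GC boxes, 0 CCAAT boxes and 0 TATA boxes in both of its windows. The Spsb4 window held 1 GC box, 0 CCAAT boxes and 0 TATA boxes. A link between these boxes and the fold change was not tested. A GC box was present in 32.7%, a CCAAT box in 33.8% and a TATA box in 12.4% of 32817 windows of that length before start sites in the table. The G and C content was 64.4% for Spsb1 and 50.8% for Spsb3, against a median of 52.4% over those windows. Neither window shown held AGAACA, which 16.1% of windows hold and which the window farthest upstream at Spsb3 held in 1 place, nor the full element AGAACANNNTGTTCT, its palindrome, which 0.00914% hold. These are letter matches in a short window and not binding sites. The lack of a match says nothing about elements elsewhere at these genes.

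Spsb1 (ENSMUSG00000039911, chromosome 4) had 1244 and 2502 counts in vehicle libraries 1 and 2, and 10102 and 30361 in dexamethasone libraries 1 and 2. As CPM, counts scaled for library size with TMM factors, these were 66.7 and 65.9 in vehicle and 337 and 325 after dexamethasone. Both dexamethasone libraries were thus far above both vehicle libraries, and the libraries within a group lay close together. The group levels were 66.3 ± 0.564 and 331 ± 8.39 CPM (SD, n = 2 each). The fold was 4.99, and its log2 was 2.32 (SE 0.122). Within replicate number 1 the log2 difference was 2.34, and within replicate number 2 it was 2.30. Spsb1 is one of the 5 genes, 0.0376% of 13285 tested, that edgeR called higher at an adjusted p under 0.05; 0 were called lower. The Wald test of DESeq2 found 236 genes higher and 53 lower and limma-voom 0, and edgeR called 64 genes when 1 dexamethasone library, whichever it was, was left out and 33 without vehicle replicate 2. Without adjustment, an edgeR p under 0.05 was reached by 543 higher genes (4.09%) and 225 lower ones (1.69%). Since its own call is what chose Spsb1, nothing is read from that call. By the log2 fold change of the called genes, Spsb1 was the smallest of the 5, and Pdk4 was the next at 3.11. The first gene outside the threshold by p, Errfi1, had a log2 fold change of 3.98 with an SE of 0.262. By size alone Spsb1 stood at rank 57 of all tested genes.

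The spread between libraries can be set beside that of genes of similar depth. Among the 3613 genes with at least 1000 counts in vehicle library 1, the median log2 gap between the vehicle libraries was 0.229, and for Spsb1 it was 0.0173. Only 145 of these genes, Spsb1 included, had a gap that small. Between the dexamethasone libraries the median gap was 0.196 and that of Spsb1 was 0.0517, with 552 genes at or below it. Spsb1 thus differed little between replicate numbers. The adjusted p by which it was chosen favours a small gap, so nothing is read from its place in this order. The summed level of 8 myotube markers, most of it Ttn, differed widely: it was 123368 and 118842 CPM in the replicate 1 libraries and 42934 and 41877 CPM in the replicate 2 libraries of vehicle and dexamethasone, respectively. All 8 markers had counts in every library. The 6 markers of proliferating or reserve myoblasts also had counts in every library, summing to between 42.0 and 61.3 CPM, lower in both dexamethasone libraries than in both vehicle libraries. Of these 6, 5 had a positive and 1 a negative log2 fold change, with a median of 0.15. The negative one was Pax7, a stem cell gene and the most abundant of them, at 32.0 and 39.0 CPM in vehicle and 17.9 and 22.9 CPM after dexamethasone. Their part in the Spsb1 difference was not tested. In bulk libraries such as these, fewer cells of a type and less RNA per cell cannot be told apart.

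**Figure D1:**
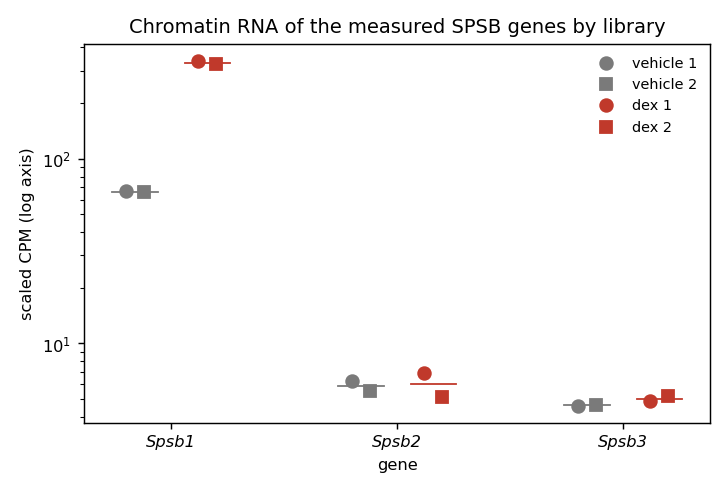
Scaled CPM (log axis) of Spsb1, Spsb2 and Spsb3 in each of the 4 libraries; grey points are vehicle, red points dexamethasone, circles replicate 1, squares replicate 2, and lines the group means. Spsb1 is at 66.7 and 65.9 in vehicle and at 337 and 325 after dexamethasone, while Spsb2 and Spsb3 stay between 4.61 and 6.91 in all libraries.

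Spsb2 (ENSMUSG00000038451, chromosome 6), whose product also targets inducible nitric oxide synthase, had 117 and 211 counts in vehicle and 207 and 481 after dexamethasone. Its scaled levels were 6.28 and 5.56 CPM in vehicle and 6.91 and 5.15 CPM after dexamethasone. The groups overlapped, with the vehicle libraries lying between the dexamethasone ones. The levels were 5.92 ± 0.506 and 6.03 ± 1.24 CPM (SD, n = 2 each), and the log2 fold change of 0.02 (SE 0.244) did not pass (edgeR adjusted p 1.00 as rounded, unadjusted p 0.926). Within replicate numbers it pointed in opposite directions, at 0.14 and -0.11, and its sign differed between scalings. The 3′ end of Spsb2 overlaps that of Tpi1, a glycolysis gene on the other strand, by 34 bases in GENCODE M21. Whether reads were counted by strand is not given in the sources used here, so reads of that overlap cannot be assigned. Tpi1 had 740 and 293 counts in vehicle and 1277 and 676 after dexamethasone. That was 39.7 and 7.72 CPM in vehicle and 42.6 and 7.24 CPM after dexamethasone, far higher in replicate 1. Spsb2 was also higher in both replicate 1 libraries, but by far less. Whether Tpi1 reads add to the Spsb2 counts was not tested.

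Spsb3 (ENSMUSG00000024160, chromosome 17) had 86 and 177 counts in vehicle and 146 and 483 after dexamethasone. Scaled, this was 4.61 and 4.66 CPM in vehicle and 4.87 and 5.17 CPM after dexamethasone. The dexamethasone libraries did not overlap with those of vehicle, but were higher by little: the levels were 4.64 ± 0.0362 and 5.02 ± 0.213 CPM (SD, n = 2 each). The log2 fold change of 0.12 (SE 0.206) did not pass (edgeR unadjusted p 0.603, adjusted p 1.00 as rounded). Such an order of libraries is common here, since 15.0% of tested genes had both dexamethasone libraries above both vehicle libraries and 12.9% had both below. The span of Spsb3, introns included, overlaps that of Eme2, on the other strand, by 3667 bases in GENCODE M21. The overlap of exons alone was not taken. Eme2 was the more abundant, at 13.3 ± 1.26 and 13.1 ± 0.207 CPM (SD, n = 2 each). Without knowledge of strand in the counting, the Spsb3 values are uncertain by the share of reads from the sequence shared with Eme2.

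Spsb4 (ENSMUSG00000046997) was listed at 0 in every library, and so were its neighbours Zbtb38, Pxylp1, Slc25a36 and Trim42. It lies in a run of 371 consecutive genes of the minus strand of chromosome 9 without a count in any library. On that strand 51 of 611 genes had any count, against 547 of 681 on the plus strand. Its zero is therefore not read as silence, and Spsb4 has no measured level here.

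The relation between the family members was next compared within libraries, where scaling plays no part. The counts of Spsb1 were 10.6 and 11.9 times those of Spsb2 in the vehicle libraries, and 48.8 and 63.1 times after dexamethasone. They were 14.5 and 14.1 times those of Spsb3 in vehicle, and 69.2 and 62.9 times after dexamethasone. The ratio of Spsb2 to Spsb3 was 1.36 and 1.19 in vehicle and 1.42 and 0.996 after dexamethasone, with the groups overlapping. Spsb1 held 86.0% (95% exact binomial interval 84.1% to 87.7%) and 86.6% (85.3% to 87.8%) of the summed counts of the 3 measured genes in vehicle libraries 1 and 2, Spsb4 being left aside as not measured. After dexamethasone it held 96.6% (96.3% to 97.0%) and 96.9% (96.7% to 97.1%). These intervals cover only the counting error within a library and not the spread between libraries. The reads carry no molecular identifiers, so copied reads could not be told apart and the intervals may be too narrow.

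**Figure D2:**
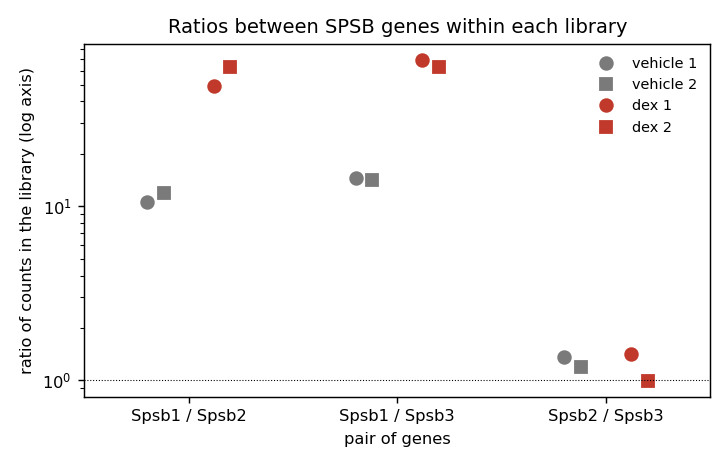
Ratio of counts (log axis) for each pair of the 3 measured genes within each library, with colours and shapes for group and replicate number (grey vehicle, red dexamethasone, circles 1, squares 2). Both ratios with Spsb1 are higher in the 2 dexamethasone libraries, and the ratio of Spsb2 to Spsb3 stays between 0.996 and 1.42.

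Levels of different genes were compared per kb of exon (GENCODE M21). In vehicle, Spsb1 stood at 15.1 ± 0.128, Spsb2 at 3.57 ± 0.305 and Spsb3 at 1.71 ± 0.0133 CPM per kb of exon (SD, n = 2 each). After dexamethasone the values were 75.3 ± 1.91, 3.64 ± 0.748 and 1.85 ± 0.0785 CPM per kb. The order Spsb1, Spsb2, Spsb3 held in all 4 libraries, and the gap between neighbours in that order exceeded the spread between libraries in both groups. The order depends on the length used. Spsb1 spans 58.8 kb of genome, Spsb2 1.96 kb and Spsb3 5.51 kb, and per kb of span Spsb2 led in vehicle at 3.02 ± 0.258, ahead of Spsb1 at 1.13 ± 0.00959 and Spsb3 at 0.842 ± 0.00656 CPM per kb. After dexamethasone Spsb1 led on this scale too, at 5.63 ± 0.143 against 3.08 ± 0.633 for Spsb2. Whether introns were counted is not given in the sources used here, so neither length can be preferred.

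The wider family of SOCS-box genes, which share the elongin-binding part but recognise their targets through other domains, was taken from a fixed list. Of 32 such genes besides the SPSB genes, 27 were tested and 0 passed an adjusted p under 0.05 in edgeR or limma-voom, while DESeq2's Wald test called 1, Socs2. Their median log2 fold change was 0.01, beside -0.00159 over all tested genes. At an unadjusted edgeR p under 0.05, 1 was higher and 2 were lower, against 4.09% and 1.69% of all tested genes. In 4 of the 27 both dexamethasone libraries were above both vehicle libraries, and in 3 both were below, shares near those of all genes. Socs1, Cish, Asb4, Asb9 and Asb17 had too few counts, at most 18 in any library.

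Socs2, a brake on growth hormone signalling, came closest to Spsb1. It had 217 and 457 counts in vehicle and 905 and 2820 after dexamethasone, or 11.8 ± 0.285 against 30.2 ± 0.00618 CPM (SD, n = 2 each). The groups were well apart. The log2 fold change was 1.35 (SE 0.143), or 1.37 and 1.32 within replicate numbers, with an edgeR adjusted p of 0.123 (1.22e-06 with DESeq2's Wald test). Asb11, whose product is an ankyrin-repeat adaptor, had a log2 fold change of 0.56 (SE 0.379) at no more than 151 counts. Asb15 and Asb10 followed at 0.48 (SE 1.31) and 0.36 (SE 0.868), with overlapping groups.

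At the other end stood Socs5, known for restraining EGF receptor signalling, with 90.3 ± 15.6 CPM in vehicle and 54.7 ± 13.7 after dexamethasone (SD, n = 2 each). Its log2 fold change was -0.72 (SE 0.239, edgeR unadjusted p 0.0328, adjusted p 0.729). Tulp4, a tubby-like gene and the SOCS-box gene with the most counts per library, had 601 ± 54.5 against 423 ± 44.2 CPM and a log2 fold change of -0.51 (SE 0.154, edgeR unadjusted p 0.0247, adjusted p 0.619). In both genes the dexamethasone libraries were below both vehicle libraries. Neurl2, at -0.44 (SE 0.282), and Socs3, the feedback inhibitor of IL-6 family signalling, at -0.41 (SE 0.450), had overlapping groups.

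**Figure D3:**
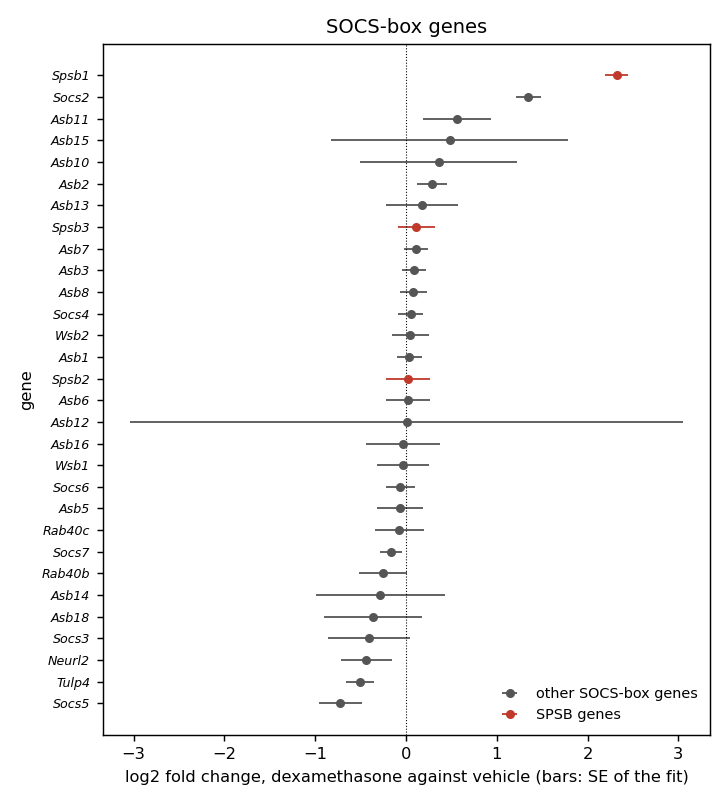
Log2 fold change, dexamethasone against vehicle, of the 27 tested SOCS-box genes (grey) and the 3 measured SPSB genes (red), with bars for the SE of the fit. Spsb1 at 2.32 and Socs2 at 1.35 lie to the right of the others, and Socs5 at -0.72 is the lowest.

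Summed over 35 SOCS-box genes, Spsb1, Spsb2 and Spsb3 included and the unmeasured Spsb4 left out, the level was 1775 and 1750 CPM in vehicle and 1849 and 1794 CPM after dexamethasone. Spsb1 made up 3.76% and 3.77% of that sum in vehicle and 18.2% and 18.1% after dexamethasone. Per kb of exon it was at rank 6 and 7 of the 35 in the vehicle libraries and at rank 2 in both dexamethasone libraries, behind Asb5, an ankyrin-repeat SOCS-box gene, at 140 and 109 CPM per kb. The total across these genes thus differed little, with a higher Spsb1 set against a lower sum of the others. Tulp4 was the largest part of the sum in every library. It was at 601 ± 54.5 CPM in vehicle and 423 ± 44.2 CPM after dexamethasone (SD, n = 2 each). That difference did not pass (edgeR adjusted p 0.619). The other SOCS-box genes were not lower as a group: of 27 tested, 14 had a positive and 13 a negative log2 fold change. The larger share of Spsb1 goes with its own level of 66.3 CPM in vehicle and 331 CPM after dexamethasone, and with the lower Tulp4.

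The partners that an SPSB protein needs were the next list. Of 14 genes of the SOCS-box ligase core and its NEDD8 pathway, 4 (Cul5, Rnf7, Arih2 and Arih1) lie in the stretches of chromosome 9 listed at 0. The cullin and the RING protein that serve SPSB ligases were therefore not measured. Of the 10 others, 0 passed in edgeR, either adjusted or at an unadjusted p under 0.05, and 0 in DESeq2 or limma-voom. Their median log2 fold change was -0.06 (0.00757 without vehicle replicate 1), with values between -0.19 and 0.07. Elob, the gene of elongin B, had 144 and 272 counts in vehicle and 201 and 595 after dexamethasone, or 7.45 ± 0.394 against 6.54 ± 0.236 CPM (SD, n = 2 each). It was the only one of the 10 whose groups did not overlap, at -0.19 (SE 0.186). Of all tested genes, 12.9% likewise had both dexamethasone libraries below both vehicle libraries. Eloc, the gene of elongin C, was at 32.0 ± 1.13 and 31.6 ± 1.77 CPM, or -0.02 on the log2 scale (SE 0.137). Cul2, the other cullin that binds elongins, was at 0.07 (SE 0.163) and the RING gene Rbx1 at 0.04 (SE 0.161). Nedd8, the modifier that activates cullins, was at -0.12 (SE 0.225), Nae1 of its activating enzyme at -0.08 (SE 0.221) and the exchange factor gene Cand1 at -0.08 (SE 0.124).

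Proteins known to be bound by SPSB proteins formed a list of 10 genes. Tgfbr2 and Cgas are among the genes of chromosome 9 listed at 0, and Nos2, the gene of inducible nitric oxide synthase, had 1 and 3 counts in vehicle and 4 and 10 after dexamethasone, too few to test. None of the 7 others passed in edgeR: 0 did so adjusted and 0 at an unadjusted p under 0.05, and DESeq2 and limma-voom also called 0. Their median log2 fold change was -0.26, and 5 of 7 were negative, but the median was 0.17 without vehicle replicate 2, 0.0202 without dexamethasone replicate 1, -0.15 without vehicle replicate 1 and -0.15 without dexamethasone replicate 2. Met, the receptor of hepatocyte growth factor, had 98.5 ± 26.1 CPM in vehicle and 70.7 ± 5.22 after dexamethasone (SD, n = 2 each). Its groups did not overlap, as for 12.9% of all tested genes in that direction, at -0.48 (SE 0.220, edgeR unadjusted p 0.0874). It was at -0.18 without vehicle replicate 1 and -0.73 without vehicle replicate 2. Nr1d1, which encodes the clock repressor REV-ERBα, was at -0.34 (SE 0.406), Ephb2, an ephrin receptor gene, at -0.26 (SE 0.347) and the germ-cell helicase gene Ddx4, at no more than 24 counts, at -0.30 (SE 0.748). Pawr, the gene of the pro-apoptotic protein PAR-4, was at 0.35 (SE 0.346) and Hnrnpa1 at 0.08 (SE 0.332), all with overlapping groups. Snai1, the gene of Snail, was at -0.10 (SE 0.438), also with overlapping groups, and was added after its value was seen.

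The SPRY domain, the other part of an SPSB protein, also occurs in unrelated proteins. Of 17 genes with that domain, 17 were tested and 0 passed in edgeR, adjusted or at an unadjusted p under 0.05. The shares of all tested genes were 0.0376% called, with 4.09% higher and 1.69% lower unadjusted. DESeq2 and limma-voom called 0 of the 17. The median log2 fold change was 0.02 and took either sign as single libraries were left out, from -0.10 to 0.11. The ryanodine receptor gene Ryr1, the calcium release channel of muscle after which the domain is partly named, was at 1202 ± 53.0 and 1139 ± 91.5 CPM (SD, n = 2 each), or -0.08 as log2 fold change (SE 0.144), and Ryr3 was at 0.08 (SE 0.248). Fbxo45, which pairs an F-box with a SPRY domain, was at 18.3 ± 1.88 and 18.4 ± 2.12 CPM (SD, n = 2 each), or 0.01 as log2 fold change (SE 0.177), and was picked after its value was seen. The extremes of the list were Ryr2 at 0.36 (SE 1.00), with at most 22 counts, and Bspry at -0.25 (SE 0.363). Cmya5, a muscle protein gene, was at 0.29 (SE 1.24) and Ranbp9 at 0.11 (SE 0.161). Hnrnpul1, at -0.09 (SE 0.119), was the only one whose groups did not overlap, against 12.9% of all tested genes in that direction. Ranbp10 was at -0.02 (SE 0.160).

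The genes beside Spsb1 on chromosome 4 were compared next, in the order of GENCODE M21. Of the 5 genes on either side, 7 of 10 were tested and 0 passed in edgeR, DESeq2 or limma-voom at an adjusted p under 0.05. At an unadjusted edgeR p under 0.05, 1 of the 7 was higher, against 4.09% of all tested genes. Their median log2 fold change was 0.24, and in 4 of 7 both dexamethasone libraries were above both vehicle libraries, against 15.0% of all genes. H6pd, the next gene and on the same strand, encodes the enzyme that supplies NADPH to the glucocorticoid-activating 11β-hydroxysteroid dehydrogenase type 1. It had 519 and 1477 counts in vehicle and 1518 and 5719 after dexamethasone, or 33.4 ± 7.84 against 55.9 ± 7.50 CPM (SD, n = 2 each). The groups did not overlap. The log2 fold change was 0.74 (SE 0.222), or 0.86 and 0.65 within replicate numbers, and an edgeR unadjusted p of 0.0234 (adjusted p 0.608).

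Slc25a33, the neighbour on the other side and a mitochondrial nucleotide carrier gene, had 651 and 1102 counts in vehicle and 1437 and 3284 after dexamethasone. Its log2 fold change was 0.38 (SE 0.215), and its groups did not overlap. Clstn1 and Gpr157 were also higher in both dexamethasone libraries, at 0.27 (SE 0.126) and 0.24 (SE 0.185). Tmem201 at 0.04 (SE 0.206), Pik3cd at -0.05 (SE 0.272) and Ctnnbip1, an inhibitor of β-catenin, at -0.42 (SE 0.282) had overlapping groups. Mir34a, Slc2a5 and Slc2a7 had at most 15 counts in any library and were not tested. Counts of Spsb1 were 2.40 and 1.69 times those of H6pd in vehicle and 6.65 and 5.31 times after dexamethasone. Spsb1 was chosen for its fold change, so nothing is read from its difference being larger than that of H6pd.

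**Figure D4:**
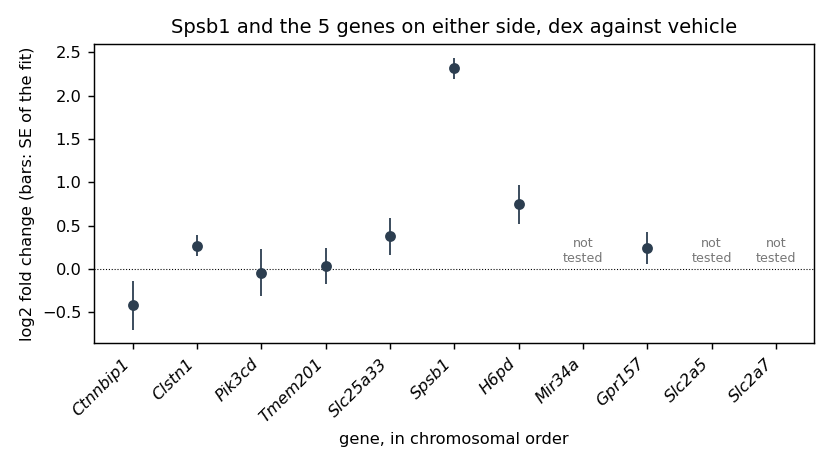
Log2 fold change, dexamethasone against vehicle, of Spsb1 and the 5 genes on either side in chromosomal order, with bars for the SE of the fit. Spsb1 is at 2.32, H6pd at 0.74 and Slc25a33 at 0.38; genes with too few counts are written as not tested.

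Around the relatives 6 neighbours were tested and 0 passed in edgeR, adjusted or at an unadjusted p under 0.05, nor in DESeq2 or limma-voom. In edgeR 0.0376% of all tested genes were called, and 4.09% were higher and 1.69% lower unadjusted, so 0 of 6 is near those shares. Next to Spsb2, Usp5 was at -0.02 (SE 0.119), Tpi1 at 0.07 (SE 1.11) and Eno2 at -0.36 (SE 0.226). Beside Spsb3, Nubp2 was at 0.20 (SE 0.199), Eme2 at -0.02 (SE 0.167) and Mapk8ip3 at 0.06 (SE 0.153). Lrrc23 and Igfals were not tested, at no more than 6 counts and 1 count in any library.

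Finally, the genes whose profile over the 4 libraries was closest to that of Spsb1 were listed. Likeness was the Euclidean distance between log2 CPM values, each centred on its own mean, over 11627 genes with at least 20 counts in every library. The closest was Wee1, a kinase that holds cells before mitosis, at a distance of 0.248, with 7.35 and 6.38 CPM in vehicle and 39.4 and 31.0 CPM after dexamethasone. Next were Pla1a, a phospholipase gene, at 0.276 and Prkar2b, a regulatory subunit of protein kinase A, at 0.297. Gas6, a ligand of TAM receptors, followed at 0.329, with 10.6 and 14.0 CPM in vehicle and 58.8 and 64.8 CPM after dexamethasone. Ly6a, at 0.340, and the transcription factor gene Cebpd, at 0.348, completed the 6. Their log2 fold changes ran from 2.05 for Ly6a (SE 0.244) to 2.36 for Wee1 (SE 0.204). With 4 libraries such a distance mostly reflects the size of the treatment difference, and it is given as a description with no test.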

How the data were processed

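The authors deposited a single table of unnormalized counts of reads for each gene, with 23333 rows. TopHat2 2.0.13, SAMtools 1.1, HTSeq 0.6.1, DESeq2 1.18.1 and the build mm9 are named in the submitters' processing notes. The annotation, the strand setting and whether introns were counted are not given in the sources used here, and the labels name both a stranded total RNA kit and a stranded mRNA kit. Columns were matched to samples by name. Repeated rows (51) were used once.

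Vehicle libraries held 19631435 and 35116830 counts and dexamethasone libraries held 32463331 and 88596296, so low genes are least precise in vehicle replicate 1. Genes were filtered with filterByExpr (minimum count 10, minimum total 15) and tested with edgeR 4.0.16 in R 4.3.3 (TMM, quasi-likelihood test, two-sided, group only), with Benjamini-Hochberg adjustment over 13285 genes and a threshold of 0.05. The script was tested on simulated data. CPM are TMM-scaled, and log2 differences within replicate numbers carry a prior count of 2. SE is the absolute log2 fold change divided by the square root of the quasi-likelihood F. GENCODE M21 (GRCm38) gave only lengths, overlaps, exon bounds and gene order, since it is not the build of the files. Promoters are RefSeq's for GRCm38.p6.

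The members and lists were chosen with earlier results of these data known. Named from each list were the 4 largest rises and 4 largest falls, with 5 neighbours on either side of Spsb1, 2 on either side of each relative and the 6 closest profiles. Elongin C, Fbxo45 and Snai1 were added after their values were seen. Alternatives were other scalings, filters, DESeq2 1.42.0, limma-voom (limma 3.58.1), a replicate block, an adjusted p of 0.1 and leaving out each library; all rows as deposited was added after seeing the data, as were counts of calls without 1 library.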

Additional observations from a re-analysis of the deposited data

How the results depend on the processing

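Spsb1 ran from 2.28 to 2.35 on the log2 scale over 13 alternatives, 2.28 with library size only and 2.29 to 2.35 without 1 library. Spsb3 stayed positive, from 0.07 to 0.16. Spsb2 changed sign near 0: -0.0224 with library size only, -0.0274 with limma-voom, -0.00407 with the replicate block, -0.00367 with upper quartile scaling, and -0.20 to 0.22 without 1 library. Neither relative passed under any of them.

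The number of genes called was 5. It was 23 with every gene of at least 1 count, 289 with DESeq2's Wald test, 0 with limma-voom and 1681 with the replicate block, and ran from 4 to 64 without 1 library (64 without either dexamethasone library, 33 without vehicle replicate 2), where the lone library is assumed to vary like the others. The labels do not say what a replicate number marks. Differences of replicate 1 from 2 correlated between groups (r = 0.734 across 13285 genes), and 2 pairs are too few to show pairing.

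With that block 2 of the 27 other SOCS-box genes were called higher (Socs2 and Asb15) and 3 lower (Socs5, Tulp4 and Neurl2). Of 7 binding partners, 3 were called lower (Met, Ephb2 and Nr1d1). Of 7 neighbours of Spsb1, 3 were called higher (H6pd, Slc25a33 and Clstn1) and 1 lower (Ctnnbip1). Over all 13285 tested genes the block called 913 higher and 768 lower, 1681 in all.

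The median of the other SOCS-box genes was -0.0725 with library size only and -0.0790 to 0.0398 without 1 library. That of the SPRY-domain genes was -0.0173 with library size only, -0.00771 with upper quartile scaling and -0.10 to 0.11 without 1 library. That of the ligase core was -0.0942 with library size only and -0.142 to 0.00757 without 1 library. That of the binding partners was -0.17 with every gene of at least 1 count and -0.15 to 0.17 without 1 library. The causes were not tested.

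Per kb of exon, Spsb1 held 73.5% and 74.7% of the counts of the 3 measured SPSB genes in vehicle and 92.8% and 93.7% after dexamethasone.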
